A study of Mus musculus with 12 samples.

Results

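The cytosolic ribosomal protein genes were read in RNA sequencing libraries of CD44+ CD8+ T cells from mice bearing melanomas. A gene belonged to the set when its symbol began with Rpl or Rps and went on as the name of a ribosomal protein or of one of its paralogues, or was Rpsa. Kinases named Rps6k and the binding protein Rps19bp1 were left out. The rule found 91 of the 48397 gene symbols in the count table, 54 for the large subunit and 37 for the small subunit. GENCODE annotates 85 of them as protein-coding and 6 as pseudogenes, and 89 had enough counts to be tested. All mice were Kaede transgenic and carried YUMMER1.7 tumors, a mouse melanoma line. Kaede is a fluorescent protein that light turns from green to red. Light was given to the tumor on day 11 and tissues were collected on day 12. The 4 egressed libraries hold red CD44+ CD8+ T cells of the draining lymph node, which had been in the tumor a day earlier. The 4 tumor-retained libraries hold red CD44+ CD8+ T cells that were still in the tumor. The 4 spleen libraries hold CD44+ CD8+ T cells of the spleen, which were sorted without the color, so their earlier contact with the tumor is unknown. The tissues came from 4 mice. The age and sex of the mice and the mouse behind each library were not given in the labels.

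A cytosolic ribosome has a small subunit, which reads the messenger RNA, and a large subunit, which joins the amino acids. Each subunit carries a fixed set of proteins, mostly in single copies, so cells make these proteins in matched amounts. Their messenger RNAs are short and abundant, and in mammals they begin with a run of pyrimidines (the 5′ terminal oligopyrimidine, or TOP, tract) through which mTOR signalling and the RNA-binding protein Larp1 adjust their translation and stability. T cells build new ribosomes when antigen activates them.

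Pyrimidine motifs of this kind were more frequent near the annotated starts of these genes than near those of all genes. RefSeq's promoter table (GRCm38.p6) had an entry for 66 of the 91 genes. At least 1 of the motifs CTTTCC or CTCTTT or CCTTTC, searched on the sense strand from 20 bases before to 50 bases after the start and able to overlap each other, was found in 37 of these 66 (56.1%), against 2205 of 27025 genes in the table (8.16%). CTTCCG or its complement CGGAAG, searched on both strands of the 300 bases, was found in 43 of 66 (65.2%) against 18.8% of all genes. GCCATC or its complement GATGGC was found in 16 of 66 (24.2%) against 15.9% of all genes. The 8 windows of 30 bases printed here are those of the genes that passed the test in some comparison below and held a pyrimidine motif. Capitals mark the motif. These genes were chosen for both traits, so they show no link between motif and level. Most of the 37 genes with a motif passed in no comparison, and other genes that passed held no such motif or had no entry.
Rpl10a (chr17:28328574-28328603, + strand): gcgctctgccttCTTTCCggtttccgcggc
Rpl4 (chr9:64173358-64173387, + strand): caagtgacaagtCTTTCCttttcctgtggg
Rpl13 (chr8:123102326-123102355, + strand): tgacgtcacttcCCTTTCgcctgattttga
Rpl39 (chrX:37085173-37085202, - strand): gttcttccggtcccggCCTTTCtcttctcc
Rps6 (chr4:86857350-86857379, - strand): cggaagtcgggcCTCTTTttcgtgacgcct
Rps7 (chr12:28635913-28635942, - strand): cgctgtccccacCTCTTTtcttccgccacc
Rps19 (chr7:24884612-24884641, + strand): cgcccgggaaaccccgtcgttcCCTTTCCc
Rpsa (chr9:120127775-120127804, + strand): ccggccgcccgtCCTTTCgcgctacccggg
Counted from 1 at RefSeq's annotated start, the first motif began at base 1 in Rps6. It began 12 and 17 bases before the start in Rpl13 and Rpl4, and at base 22 in Rpl10a and Rpsa, 24 in Rps7, 37 in Rpl39 and 43 in Rps19. Of these 8 genes, only Rps6 had it where the annotated transcript begins. A match describes these letters only, and it was not tested whether it acts in T cells.

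Libraries held 22.7 to 36.3 M counts (M, mega). Levels are given as CPM, counts per M counts of the library, after TMM scaling. A count of 0 allowed up to 0.0827 to 0.132 CPM before that scaling, which is 3 counts in a library. These bounds cover counting error only, because reads without molecular identifiers are not independent molecules. The number of genes with a count was 14927 to 25916 in egressed, 15296 to 21306 in tumor-retained and 30658 to 32165 in spleen libraries, with the fewest in egressed libraries 3 and 4 and tumor-retained library 1. The summed level of 8 CD8 T cell markers was 5330 to 5618 CPM in egressed, 3740 to 6814 CPM in tumor-retained and 5761 to 6743 CPM in spleen libraries, and all 8 were detected in each group. Tumor-retained libraries 3 and 4 stood apart in markers of other cells. Their 12 macrophage markers summed to 2225 and 3569 CPM, against 32.8 and 38.9 CPM in tumor-retained libraries 1 and 2. Egressed libraries held 7.52 to 105 CPM and spleen libraries 29.5 to 96.0 CPM of the same markers. Their 10 stromal markers summed to 4745 and 2229 CPM, against 153 and 144 CPM in tumor-retained libraries 1 and 2, 66.8 to 135 CPM in egressed and 142 to 161 CPM in spleen libraries. The 8 B cell markers summed to 121 to 183 CPM in egressed, 3.81 to 47.1 CPM in tumor-retained and 55.2 to 74.0 CPM in spleen libraries. The 7 melanoma markers summed to 7.46 to 21.5 CPM in egressed, 4.39 to 21.1 CPM in tumor-retained and 20.1 to 30.6 CPM in spleen libraries, with Sox10 at 0 in all of them. The 3 markers of CD4 T cells summed to 9.10 to 47.7 CPM, 27.9 to 39.9 CPM and 6.67 to 11.5 CPM in the same order of groups. Bulk RNA cannot tell fewer cells of a type from less RNA in each cell.

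Ribosomal protein transcripts took a larger part of the RNA in egressed cells than in either other population. Together the 91 genes held 3.92, 3.92, 3.73 and 3.64% of all counts in the egressed libraries, 2.83, 2.30, 2.75 and 1.79% in the tumor-retained libraries and 3.03, 3.19, 2.59 and 2.88% in the spleen libraries. Every egressed library lay above all 8 others, whereas tumor-retained and spleen libraries overlapped. The mean share was 3.80 ± 0.143% in egressed, 2.42 ± 0.477% in tumor-retained and 2.92 ± 0.256% in spleen cells (SD, n = 4 each). The Wilson 95% binomial interval of each library's share was narrow, 0.00432 to 0.00769 percentage points to either side, so the spread between libraries and not the depth set the precision. Both subunits showed the same order. Large subunit genes took 2.17 ± 0.0939% of counts in egressed, 1.42 ± 0.271% in tumor-retained and 1.69 ± 0.143% in spleen cells, and small subunit genes took 1.63 ± 0.0527%, 0.997 ± 0.206% and 1.24 ± 0.113% in the same order of groups. Without tumor-retained libraries 3 and 4 the tumor-retained mean was 2.57%. The part of other cells' RNA in these shares was not tested.

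**Figure D1:**
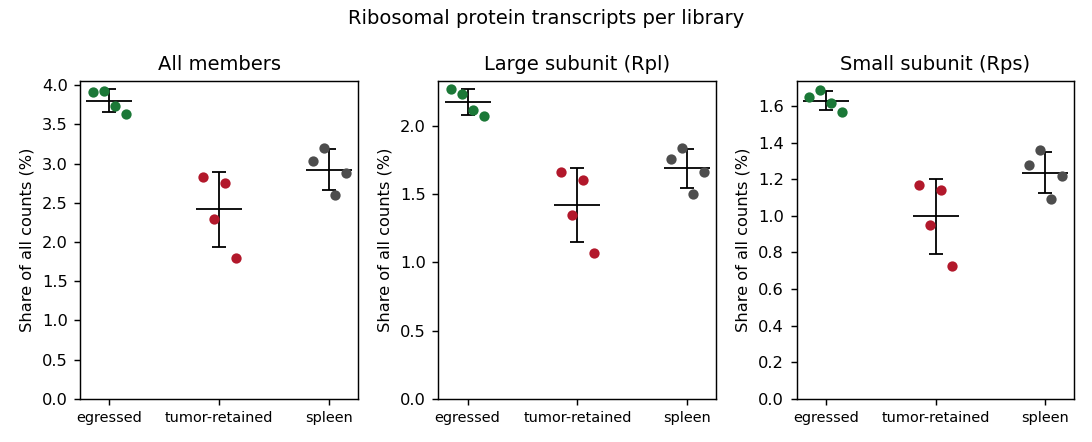
Share of all counts, in percent, held by the 91 ribosomal protein genes (left), the large subunit genes (middle) and the small subunit genes (right), with 1 point per library and the mean ± SD of 4 libraries as a bar with whiskers. All 4 egressed libraries (3.64 to 3.92%) sit above the 4 tumor-retained (1.79 to 2.83%) and the 4 spleen libraries (2.59 to 3.19%).

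The genes kept nearly the same order of level in each population. Over the 89 tested genes, the mean levels in CPM of egressed and tumor-retained cells correlated with Spearman's rho 0.98, those of egressed and spleen cells with 0.98, and those of tumor-retained and spleen cells with 0.97. These correlations run across genes and are descriptions. Per kilobase of transcript, so that genes can be compared, the median level was 399.8 CPM per kb. Rps27, a small subunit protein with a zinc finger, was the highest at 2064 CPM per kb over 12 libraries. Rpl13 followed with 1675, Rps19 with 1369.5, Rpl32 with 1288 and Rpl37a with 1265 CPM per kb. In all, 74 of 89 genes averaged 100 CPM or more and 10 averaged under 20 CPM. The 10 low genes were mainly paralogues and retrocopies, but Rpl24 and Rpl13a, which encode core proteins of the large subunit, were among them. Rpl24 held 6.76, 4.97, 5.95 and 10.5 CPM in egressed, 4.27, 1.02, 1.19 and 0.978 CPM in tumor-retained and 1.92, 2.20, 2.00 and 3.06 CPM in spleen libraries. Its egressed libraries did not overlap either other group. At this depth neither difference passed the edgeR test (adjusted p = 0.237 against tumor-retained and 0.647 against spleen). DESeq2 called Rpl24 higher in egressed than in tumor-retained cells. Rpl13a, singled out after its values were seen, held 2.70 to 16.0 CPM over the 12 libraries. Of the stretches of 50 bases in their reference transcripts, 81.7% for Rpl24 and 57.4% for Rpl13a also occur in another gene. How the authors' counting treated reads that fit several genes was not given in the sources used here, so levels of genes with near-identical copies are uncertain.

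Libraries of a group differed from each other most among tumor-retained cells. The median SD of log2 CPM within a group, over the 89 genes, was 0.12 in egressed, 0.35 in tumor-retained and 0.15 in spleen cells. Over the 2541 genes of 100 CPM or more, the same medians were 0.30, 0.38 and 0.13. In egressed cells the ribosomal protein genes therefore varied less between libraries than abundant genes did, and in spleen cells they did not. Rpl29 was the most variable gene in all 3 groups (SD 1.82 in egressed, 1.41 in tumor-retained and 1.60 in spleen), and it was singled out for this. It had 4750, 800, 491 and 5392 counts in egressed libraries 1 to 4, 4312, 555, 4650 and 5991 in tumor-retained and 4553, 579, 616 and 3763 in spleen libraries. Library 2 was low in every group, library 3 was low in egressed and spleen cells, and the groups overlapped throughout. Of its stretches of 50 bases, 78.5% occur in another gene. The source of this split was not tested.

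The comparison of egressed with tumor-retained cells asks how CD8 T cells that left the tumor differed from those that stayed. Ribosomal protein genes were higher in egressed cells, by a median of 0.54 on the log2 scale or 1.46-fold. The genes from the 25th to the 75th percentile lay between 0.41 and 0.66, whereas the median over all 21457 genes tested was 0.00. In the test, 13 of 89 genes rose in egressed cells and 0 fell. Of all genes tested, 0.508% were called higher and 0.587% lower, and of the 2541 genes of 100 CPM or more 2.79% were called higher. At an unadjusted p under 0.05 the counts were 61 higher and 0 lower, against 9.57% higher and 7.81% lower among all genes. Among genes of 100 CPM or more, 15.7% were higher and 15.8% lower at that p. DESeq2 called 37 of the 89 higher and 0 lower, against 4.35% and 4.99% of all genes with an adjusted p. Of the 89 genes, 51 had all 4 egressed libraries above all 4 tumor-retained libraries, against 3.14% of all genes tested, and none lay wholly below, against 3.21%. Among genes of 100 CPM or more, 8.54% lay wholly above and 7.2% wholly below. The fold change was above 0 in 83 of 89 genes, against 50.2% of all genes. Small subunit genes had a median of 0.61 with 8 calls among 36, and large subunit genes a median of 0.51 with 5 calls among 53.

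**Figure D2:**
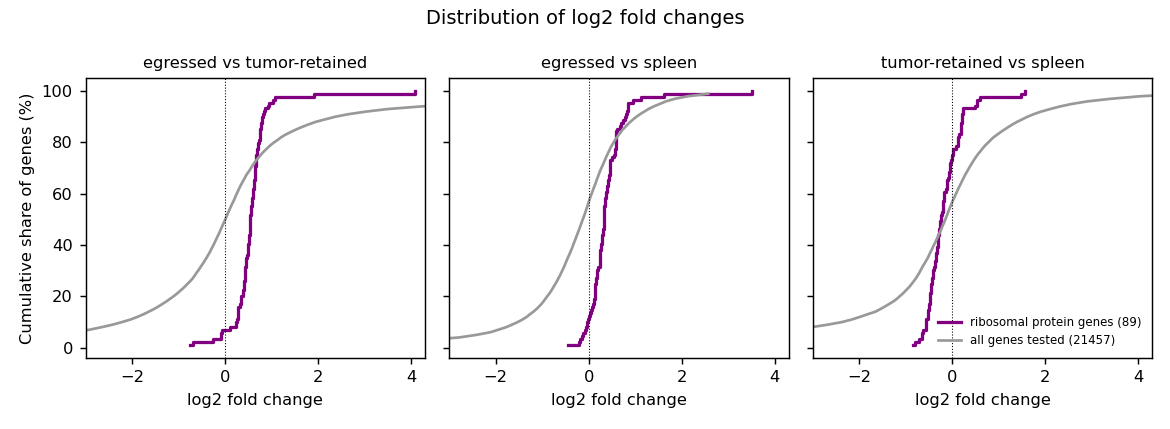
Cumulative share of genes, in percent, against the log2 fold change, for the 89 tested ribosomal protein genes and for all 21457 genes tested (1st to 99th percentile, within the axis), in the 3 comparisons. The median of the ribosomal protein genes lies to the right of that of all genes for egressed cells against tumor-retained cells (median 0.54 against 0.00) and against spleen cells (0.33 against -0.13), and slightly to its left for tumor-retained against spleen cells (-0.24 against -0.15).

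Rpl10a and Rps7 were the clearest of the 13. Rpl10a (chromosome 17, 28328471 to 28331033 on mm10) encodes the protein of the stalk by which used transfer RNA leaves the large subunit. It stood at 367, 309, 297 and 370.2 CPM in egressed libraries, against 143, 155, 203 and 156 CPM in tumor-retained libraries. All egressed libraries were higher than all tumor-retained ones, a 2.05-fold difference (log2 fold change 1.03 ± 0.15 SE, adjusted p = 0.00814). Rps7 (chromosome 12, 28630854 to 28635953) encodes a small subunit protein that takes part in assembling that subunit. It stood at 733, 707, 667 and 762 CPM in egressed and 442, 379, 452 and 322 CPM in tumor-retained libraries, again without overlap (log2 fold change 0.85 ± 0.12 SE, adjusted p = 0.00921). In spleen libraries, Rpl10a had 239.9, 271, 225 and 238 CPM and Rps7 584, 561, 506 and 519 CPM, between both red populations in every library. Only 21 genes of all tested (0.0979%) had this order of all 12 libraries.

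The other small subunit genes that rose included Rps3a1, Rpsa, Rps18, Rps6, Rps19 and Rps13. Rpsa, which joins the small subunit late in its assembly and is also known as a laminin receptor, held 828, 808, 766 and 676 CPM in egressed and 461, 412, 595 and 368 CPM in tumor-retained libraries (log2 fold change 0.74 ± 0.16 SE, adjusted p = 0.0452). Rps6, the ribosomal substrate of the S6 kinases downstream of mTOR, held 530.2, 555, 556 and 501 CPM in egressed and 404, 262, 377 and 273 CPM in tumor-retained libraries (log2 fold change 0.70 ± 0.15 SE, adjusted p = 0.0456). Both sets of libraries were apart, with the smallest egressed value of each gene above the highest tumor-retained one. Rps19, the gene most often mutated in human Diamond-Blackfan anemia, averaged 1095 ± 80.9 CPM in egressed and 633 ± 176 CPM in tumor-retained cells (SD, n = 4 each; adjusted p = 0.0479). The log2 fold changes of Rps18 and Rps3a1 were 0.76 and 0.66 (adjusted p = 0.0452 and 0.0436). Rps13, named although it was outside the naming rule, was the last to pass (adjusted p = 0.0499).

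Beside Rpl10a, the large subunit genes that rose were Rpl4, Rpl21, Rplp1 and Rpl12. Rplp1, an acidic protein of the flexible stalk that recruits elongation factors, held 405, 369, 416 and 325 CPM in egressed and 233, 183, 263 and 169 CPM in tumor-retained libraries (log2 fold change 0.84 ± 0.17 SE, adjusted p = 0.0436). Rpl12 lies at the base of that stalk and averaged 359 ± 34.7 CPM in egressed and 188 ± 58.4 CPM in tumor-retained cells (log2 fold change 0.94 ± 0.20 SE, adjusted p = 0.0473). The other stalk genes Rplp0 and Rplp2 did not pass, with log2 fold changes of 0.27 ± 0.19 and 0.46 ± 0.20 SE (adjusted p = 0.54 and 0.247). Rplp0 libraries overlapped between the groups and Rplp2 libraries did not. Rpl4, which lines part of the exit tunnel, differed by 0.64 and Rpl21 by 0.75 on the log2 scale (adjusted p = 0.0305 and 0.0351).

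How many genes passed varied with the libraries in the fit. A block for replicate number left 2 genes that rose and 0 that fell, against 0.158% and 0.205% of all genes. The labels do not state what the number ties together. There were 2, 2, 3 and 1 without egressed libraries 1 to 4, 22, 3, 15 and 2 without tumor-retained libraries 1 to 4, and 2 without any 1 of the spleen libraries, which take part in the shared estimate of spread. The median log2 fold change stayed at 0.44 to 0.64 over these fits. Without both tumor-retained libraries 3 and 4, which held the macrophage and stromal transcripts, 6 genes rose, 4 of them among the 13, and the median was 0.53 while that of all genes was 0.22. Rpl10a passed without any single library, whereas Rps7 did not without egressed library 4 (adjusted p = 0.0530).

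**Figure D3:**
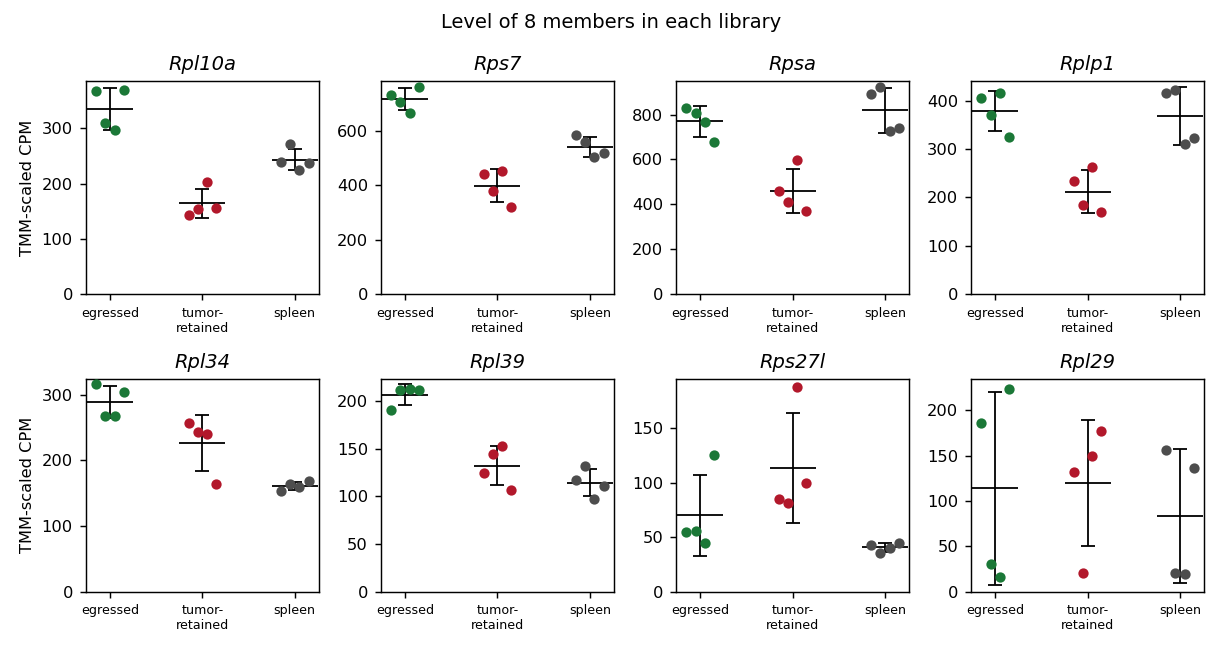
TMM-scaled CPM of 8 genes in each library (points), with the mean ± SD of 4 libraries per group. Rpl10a and Rps7 were ordered egressed, spleen, tumor-retained in every library; Rpsa and Rplp1 were lowest in tumor-retained cells; Rpl34 and Rpl39 were highest in egressed cells; Rps27l was lowest in spleen cells; Rpl29 was split within every group.

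The comparison of egressed with spleen cells asks how cells that came from the tumor into the draining node differed from effector cells of the spleen, which the submitters' design text calls circulating. Both comparisons of egressed cells use the same 4 egressed libraries. Here too the ribosomal protein genes were higher in egressed cells, by a median of 0.33 on the log2 scale or 1.26-fold, against a median of -0.13 over all genes tested. Scaling by median-of-ratios factors put the median of all genes at 0.03 and that of the ribosomal protein genes at 0.49, and relative to all genes the difference stayed at 0.46 under both scalings. In the test, 2 of 89 genes rose and 0 fell. Of all genes tested, 0.196% were called higher and 0.172% lower, and of those of 100 CPM or more 1.42% were called higher. The share of ribosomal protein genes called higher (2.25%) was thus near that of abundant genes. At an unadjusted p under 0.05, 29 were higher and 0 lower, against 2.05% and 6.74% of all genes and 8.46% and 20.2% of genes of 100 CPM or more. DESeq2 called 23 higher and 0 lower, against 2.27% and 1.6% of all genes with an adjusted p. In 38 genes all egressed libraries lay above all spleen libraries (2.94% of all genes tested), and in none wholly below (11.1% of all genes). Among genes of 100 CPM or more, 9.88% lay wholly above and 22.6% wholly below. The fold change was above 0 in 79 genes, against 43.2% of all genes.

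Both genes that rose belong to the large subunit, and 2 calls are too few to compare the subunits. Rpl34 (chromosome 3, 130726831 to 130730398) held 316, 267, 268 and 304 CPM in egressed libraries, against 154, 165, 160.1 and 168 CPM in spleen libraries (log2 fold change 0.84 ± 0.15 SE, adjusted p = 0.0398). Rpl39 (chromosome X, 37082520 to 37085402), a very small protein at the exit tunnel, held 190.1, 211, 212 and 211 CPM in egressed libraries, against 117, 132, 97.0 and 111 CPM in spleen libraries (log2 fold change 0.85 ± 0.15 SE, adjusted p = 0.0403). Neither gene's groups overlapped, and the differences were 1.79-fold and 1.81-fold. Rpl34 in tumor-retained libraries held 258, 243, 241 and 164 CPM, below all egressed libraries and, in libraries 1 to 3, above all spleen libraries. The next genes by p all missed the threshold: Rpl35 differed by 0.94, Rpl17 by 0.85, Rpl35a by 0.69, Rpl41 by 0.74, Rps25 by 0.66 and Rpl32 by 0.62 on the log2 scale (adjusted p = 0.052 to 0.114). With median-of-ratios scaling 9 genes rose and 0 fell, against 0.326% and 0.0932% of all genes, namely Rpl34, Rpl39, these 6 and Rpl31.

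Both calls were lost without any single egressed or spleen library and without tumor-retained library 2, which left 0 genes past the edgeR test and 21 to 31 higher at an unadjusted p under 0.05. They were also lost with a block for replicate number (0.0699% of all genes called higher and 0.0373% lower), which left 30 genes higher at an unadjusted p under 0.05. The count was 6, 4 and 2 without tumor-retained libraries 1, 3 and 4. The median stayed between 0.26 and 0.40 in these fits.

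Rpl10a and Rps7 lay apart from spleen as well but did not pass (adjusted p = 0.259 and 0.255). Of the 13 genes called against tumor-retained cells, 8 had every egressed library above every spleen library, Rpl10a, Rps7, Rpl12, Rpl21, Rps6, Rps13, Rps18 and Rps19, and 5 overlapped spleen. None of the 13 passed the edgeR test against spleen, while DESeq2 called Rpl10a, Rps7, Rpl21, Rps6 and Rps13 higher in egressed cells. Among the 5, Rpsa had 828, 808, 766 and 676 CPM in egressed and 891, 922, 725 and 741 CPM in spleen libraries, which overlapped (log2 fold change -0.09 ± 0.15 SE, 95% interval -0.43 to 0.24). Rplp1 had 405, 369, 416 and 325 CPM in egressed and 417, 423, 311 and 323 CPM in spleen libraries, which also overlapped (log2 fold change 0.04 ± 0.17 SE, 95% interval -0.33 to 0.41). The p-values of both missed the threshold, which does not show equal levels.

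The comparison of tumor-retained with spleen cells sets cells of the tumor against the spleen cells, and it shares libraries with both comparisons above. Here 6 of 89 genes fell in tumor-retained cells and none rose. For all genes tested, 1.39% were called lower and 1.02% higher, and for those of 100 CPM or more 7.56% and 5.31%, so that the share of ribosomal protein genes called lower (6.74%) was near that of abundant genes. The median was -0.24, against -0.15 over all genes. That position below all genes turned in 6 of 22 alternatives: the ribosomal protein median lay above that of all genes by 0.45 with limma, 0.37 without a filter on low counts, 0.26 with a block for replicate number, 0.21 without both tumor-retained libraries 3 and 4, and 0.19 and 0.08 without tumor-retained library 2 or 4. Scaled by median-of-ratios factors, which put the median of all genes at 0.03, the median was -0.07 and the split was 2 higher (Rpl34 and Rps27l) and 1 lower (Rpsa), against 1.5% and 0.83% of all genes. At an unadjusted p under 0.05, edgeR gave 2 higher and 23 lower, against 5.1% higher and 11.6% lower among all genes. Among genes of 100 CPM or more these shares were 14.1% and 25%, and the 23 genes were 25.8% of the 89. DESeq2 called 2 higher and 4 lower, against 4.95% and 3.68% of all genes with an adjusted p. All tumor-retained libraries lay below all spleen libraries in 12 genes (15.9% of all genes tested), and above them in 1, Rps27l (4.43% of all genes). Among genes of 100 CPM or more, 23.4% lay wholly below and 9.76% wholly above. The fold change was above 0 in 22 genes, against 43.1% of all genes.

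Rpsa (chromosome 9, 120127689 to 120132369) fell the most among the 6. It had 461, 412, 595 and 368 CPM in tumor-retained libraries, against 891, 922, 725 and 741 CPM in spleen libraries, and the groups did not overlap (log2 fold change -0.84 ± 0.16 SE, adjusted p = 0.0132). Rplp1 of the stalk had 233, 183, 263 and 169 CPM in tumor-retained and 417, 423, 311 and 323 CPM in spleen libraries (log2 fold change -0.80 ± 0.17 SE, adjusted p = 0.0315). Rpl8, Rpl13 and Rpl4 also fell, by 0.65, 0.64 and 0.51 on the log2 scale (adjusted p = 0.0279, 0.0399 and 0.0492). Rpl8 lies near the center where peptide bonds form. It averaged 379 ± 55.3 CPM in tumor-retained and 595 ± 79.4 CPM in spleen cells (SD, n = 4 each), with no overlap. All 6 genes had every tumor-retained library below every spleen library.

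The count here, in both directions, was 2, 1, 7 and 2 without egressed libraries 1 to 4, 3, 1, 9 and 2 without tumor-retained libraries 1 to 4, and 0, 0, 1 and 2 without spleen libraries 1 to 4. Of the genes counted, 1 was higher without egressed library 3, egressed library 4 or tumor-retained library 4, and the rest were lower. A block for replicate number left 2 that fell and 0 that rose, against 0.75% and 0.625% of all genes. At an unadjusted p under 0.05, edgeR still gave 16 and 13 lower without spleen libraries 1 and 2. Without both tumor-retained libraries 3 and 4 there were 3 lower, and without the 3 libraries with the fewest genes 10 lower and 1 higher (Rps27l). Rpsa kept its call in 20 of 22 alternatives, the exceptions being the fits without spleen library 1 or 2.

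Seen gene by gene over the 12 libraries, in 28 of the 89 genes every egressed library lay above all 8 other libraries, against 141 of 21457 genes tested (0.657%). Among them were Rpl10a, Rpl12, Rpl21, Rpl34, Rpl39, Rps6, Rps7, Rps18 and Rps19. Tumor-retained library 4 had the lowest share of ribosomal protein counts and tumor-retained library 2 the next lowest, and it was library 4 that held the most macrophage transcripts, while library 2 held few. The other library with macrophage and stromal transcripts, tumor-retained 3, had a share (2.75%) near that of library 1 (2.83%), which had few.

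**Figure D4:**
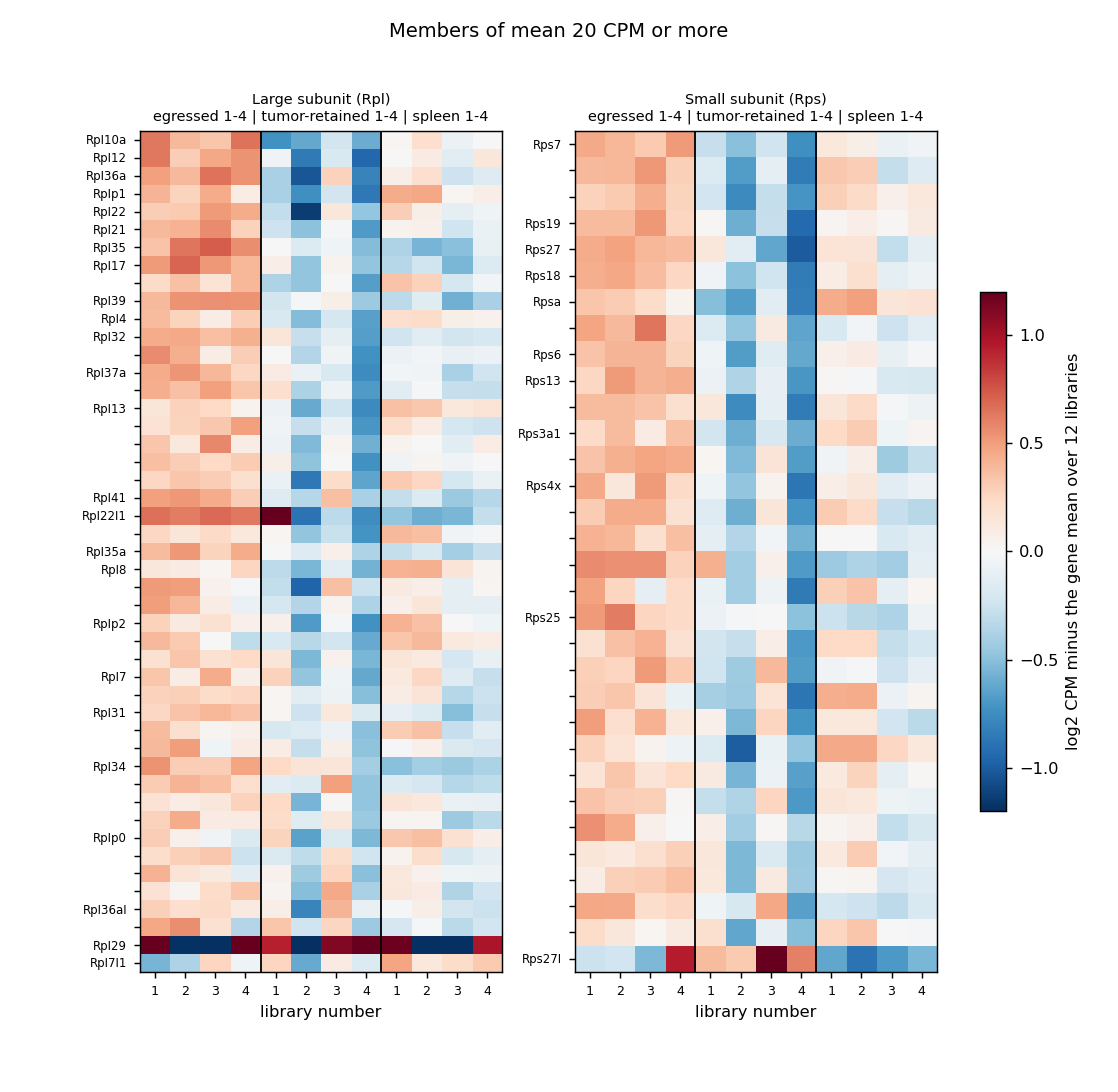
Log2 CPM of 79 genes with a mean of 20 CPM or more (47 large subunit genes on the left, 32 small subunit genes on the right), each minus its own mean over 12 libraries, with genes sorted by their log2 fold change of egressed over tumor-retained cells. Columns are egressed, tumor-retained and spleen libraries 1 to 4; red is above and blue below the gene's mean, and values beyond ±1.2 take the end color. Row labels are given for genes named in the text. Most rows are red in all egressed columns, and Rpl29, Rpl22l1, Rpl7l1 and Rps27l are among the rows that do not follow the rest.

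Paralogues did not all follow their partners. Rps27 has a near copy, Rps27l, known in human and mouse as a target of p53, and a retrocopy, Rps27rt. The coding sequences of Rps27 and Rps27rt were identical over all 252 bases, so reads from the coding part of one cannot be told from the other. Rps27l was 76.2% identical to Rps27 and shares only 22.4% of its stretches of 50 bases with any other gene. The first 60 coding bases of Rps27 (chromosome 3) and Rps27l (chromosome 9) are shown to make the difference visible, with capitals at the 18 bases where Rps27l departs from Rps27.
Rps27: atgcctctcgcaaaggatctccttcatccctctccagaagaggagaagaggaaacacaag
Rps27l: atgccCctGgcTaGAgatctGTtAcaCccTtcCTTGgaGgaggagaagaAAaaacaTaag
Rps27l (chromosome 9, 66946086 to 66949516) held 54.7, 55.8, 45.0 and 125 CPM in egressed, 85.0, 81.4, 188 and 99.6 CPM in tumor-retained and 42.4, 35.2, 40.5 and 44.7 CPM in spleen libraries. All tumor-retained libraries were above all spleen libraries, and egressed library 4 lay among the tumor-retained ones. Its log2 fold change of tumor-retained over spleen was 1.48 ± 0.36 SE, which narrowly missed the threshold (adjusted p = 0.056), and that of egressed over tumor-retained was -0.69 ± 0.36 SE (adjusted p = 0.361). Rps27 lay the other way, with 932, 958, 902 and 882 CPM in egressed, 750.5, 624, 443 and 343 CPM in tumor-retained and 763, 759, 557 and 634 CPM in spleen libraries. Egressed libraries were above all others for Rps27, and its log2 fold change over tumor-retained was 0.77 ± 0.21 SE (adjusted p = 0.103). Whether the 2 genes' changes differ from each other was not tested.

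Rpl22 binds RNA and is needed in mice for the development of alpha beta T cells, and its paralogue Rpl22l1 was 66.9% identical in coding sequence. Rpl22l1 held 74.2, 72.0, 75.2 and 72.7 CPM in egressed, 113, 25.4, 37.8 and 28.0 CPM in tumor-retained and 33.9, 31.2, 32.2 and 38.5 CPM in spleen libraries. It was nearly constant in egressed cells and above all spleen libraries there, but tumor-retained library 1 exceeded every other library, and no comparison passed (adjusted p = 0.634, 0.392 and 0.618 for egressed over tumor-retained, egressed over spleen and tumor-retained over spleen). Rpl22 held 113, 114, 131 and 125 CPM in egressed, 74.9, 41.6, 101 and 66.6 CPM in tumor-retained and 113, 96.4, 84.4 and 88.4 CPM in spleen libraries. Its egressed libraries were above the tumor-retained ones and overlapped spleen (log2 fold change 0.77 ± 0.24 SE, adjusted p = 0.142 over tumor-retained).

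Rpl36a and Rpl36al were 87.7% identical and stood at similar levels, and neither passed the edgeR test in any comparison. DESeq2 called Rpl36a, and not Rpl36al, higher in egressed than in tumor-retained cells. Their log2 fold changes of egressed over tumor-retained were 0.92 ± 0.25 and 0.24 ± 0.21 SE. Rpl7l1, 52.7% identical to Rpl7, was among the 6 genes whose log2 fold change of egressed over tumor-retained was not above 0 (-0.08 ± 0.22 SE), while that of Rpl7 was 0.42 ± 0.20 SE. The paralogues known from muscle (Rpl3l) and testis (Rpl39l and Rpl10l) were near the limit of detection. Rpl3l held 0.626, 0, 4.87 and 5.36 CPM in egressed libraries, 0, 0, 0.354 and 0.267 CPM in tumor-retained libraries and 0, 0.419, 0.222 and 0.291 CPM in spleen libraries, with a fold change too imprecise to read (log2 fold change 4.09 ± 2.08 SE, adjusted p = 0.353). Rpl39l held 2.07, 0, 0 and 0 CPM in egressed, 0, 0.979, 0 and 0 CPM in tumor-retained and 0.446, 0.558, 0.0635 and 0.327 CPM in spleen libraries. Rpl10l had 3 counts, all in spleen library 3, and the pseudogene Rps12l1 had none in any library. Rps4l, annotated as a pseudogene, held 12.5, 7.05, 0 and 0 CPM in egressed, 20.9, 4.28, 4.51 and 3.47 CPM in tumor-retained and 2.30, 3.45, 2.00 and 3.49 CPM in spleen libraries. Its X-linked partner Rps4x averaged 509 ± 63.4, 328 ± 89.3 and 404 ± 35.1 CPM in egressed, tumor-retained and spleen cells (SD, n = 4 each).

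Transcript length went with some of the differences. Across the 89 genes, Spearman's rho between transcript length and log2 fold change was -0.38 for egressed over spleen and -0.30 for tumor-retained over spleen, but -0.03 for egressed over tumor-retained. Over 2453 protein-coding genes of 100 CPM or more the same values were -0.46, -0.29 and -0.09, so the relation was not particular to ribosomal protein genes. The 30 genes with the shortest transcripts (271 to 570 bases) had a median log2 fold change of 0.44 for egressed over spleen, the middle 29 (577 to 835 bases) a median of 0.33 and the 30 longest (851 to 3706 bases) a median of 0.17. For tumor-retained over spleen the same medians were -0.07, -0.20 and -0.35. For egressed over tumor-retained they were 0.55, 0.54 and 0.55. Rpl34 and Rpl39, which rose against spleen, have transcripts of 480 and 612 bases. These are descriptions across genes of the same 12 libraries, and the part that length plays in the comparisons with spleen was not tested.

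**Figure D5:**
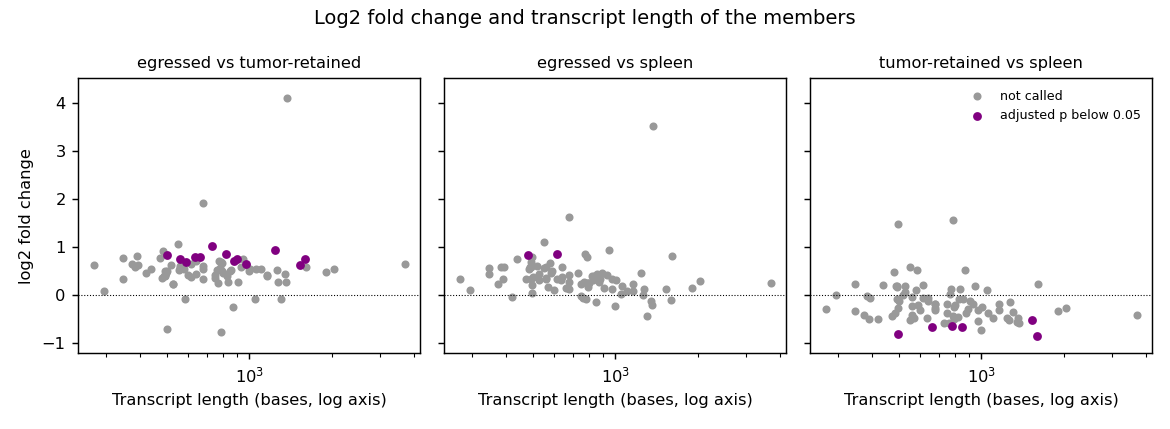
Log2 fold change of each of the 89 tested genes against the length of its transcript in bases (log axis) in the 3 comparisons, with genes that passed the test in purple. The points slope down to the right in both comparisons with spleen (rho -0.38 and -0.30) and not for egressed against tumor-retained cells (rho -0.03).

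Among the 91 genes, 59 share at least 50% of their stretches of 50 bases with another gene, and 3 share none. The median log2 fold change of egressed over tumor-retained was 0.54 in the 58 tested genes that share 50% or more and 0.54 in the 28 that share less. For egressed over spleen these medians were 0.33 and 0.29, and for tumor-retained over spleen -0.19 and -0.32. The 274 gene symbols of ribosomal protein pseudogenes held 0.0360 ± 0.00401% of counts in egressed, 0.0266 ± 0.00808% in tumor-retained and 0.0283 ± 0.00298% in spleen libraries (SD, n = 4 each).

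How other genes of ribosome production and translation moved differed by list and by comparison. Their counts can be set against the shares of all genes tested that were called higher and lower, 0.508% and 0.587% for egressed over tumor-retained, 0.196% and 0.172% for egressed over spleen, and 1.02% and 1.39% for tumor-retained over spleen. Among genes of 100 CPM or more the shares were 2.79% and 2.75%, 1.42% and 1.06%, and 5.31% and 7.56% in the same order. Of 46 tested genes of ribosome assembly, 1 was higher and 0 were lower in egressed than in tumor-retained cells, and the median was 0.47. With no adjustment, 15 had p under 0.05 and were higher and 1 was lower, and DESeq2 called 8 higher and 0 lower. The gene that edgeR called, Nob1, which encodes the enzyme that trims the small subunit's RNA, held 112, 126, 132 and 121 CPM in egressed and 68.0, 52.6, 69.3 and 77.5 CPM in tumor-retained libraries (log2 fold change 0.88 ± 0.16 SE, adjusted p = 0.0272). Between egressed and spleen cells 0 of the 46 were called (2 higher and 2 lower at an unadjusted p under 0.05, and 1 higher by DESeq2), and the median was -0.12, close to that of all genes. Between tumor-retained and spleen cells 5 fell and 0 rose, namely Nob1, Tsr1, Dkc1, Heatr1 and Fbl. The median was -0.60, against -0.15 over all genes and -0.24 over the ribosomal protein genes. The log2 fold change was above 0 in 5 of the 46. At an unadjusted p under 0.05, 21 were lower and 1 higher, and DESeq2 called 6 lower and 1 higher. Tsr1, an assembly factor of the small subunit, held 40.7, 15.4, 53.4 and 30.3 CPM in tumor-retained and 99.6, 106, 105 and 96.9 CPM in spleen libraries (log2 fold change -1.54 ± 0.32 SE, adjusted p = 0.0251). Dkc1, which modifies uridines in ribosomal RNA, held 64.4, 82.1, 118 and 72.3 CPM in tumor-retained and 165, 191, 226 and 215 CPM in spleen libraries (log2 fold change -1.24 ± 0.26 SE, adjusted p = 0.0267). The libraries of the compared groups were apart for these 3 genes.

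Among 7 tested elongation factor genes 0 were called by edgeR in the comparisons of egressed cells (medians 0.25 over tumor-retained and -0.12 over spleen), while DESeq2 called 1 higher over tumor-retained and 1 lower over spleen. Unadjusted p under 0.05 was reached by 1 higher and 2 lower genes in the same comparisons. Eef2, which moves the ribosome along the messenger RNA, was lower in tumor-retained than in spleen cells (log2 fold change -0.61 ± 0.14 SE, adjusted p = 0.0387). Of 29 initiation factor genes 0 were called between egressed and tumor-retained cells by edgeR or DESeq2 (2 higher and 1 lower at an unadjusted p under 0.05), and the median was 0.07. Eif4g2 was lower in egressed than in spleen cells (log2 fold change -0.64 ± 0.12 SE, adjusted p = 0.0389), and Eif4a1, the RNA helicase of cap-dependent initiation, was lower in tumor-retained than in spleen cells (log2 fold change -0.57 ± 0.12 SE, adjusted p = 0.0279). By edgeR no gene was called in a list of 5, Fau, Rack1, Naca and Btf3 among them, which encode proteins made with, or bound to, the ribosome, nor among 76 mitochondrial ribosomal protein genes, whose medians were 0.16, 0.10 and -0.10 for egressed over tumor-retained, egressed over spleen and tumor-retained over spleen. At an unadjusted p under 0.05 these mitochondrial genes gave 6 higher and 1 lower, 3 higher and 1 lower, and 0 higher and 2 lower in the same order, and DESeq2 called 4, 3 and 1 higher. The list of 5 gave 1, 2 and 0 higher, and DESeq2 called 1 of them, over spleen in egressed cells. Fau, whose product includes a small subunit protein, held 222, 235, 225 and 204 CPM in egressed and 243, 193, 286 and 211 CPM in tumor-retained libraries, which overlapped.

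Of 18 genes that regulate messenger RNAs with the pyrimidine tract or ribosome production, 2 were called between egressed and tumor-retained cells. Of these 1 was higher and 1 lower in egressed cells, and the median of the 18 was -0.16, with 7 above 0. At an unadjusted p under 0.05, 2 were higher and 4 lower, and DESeq2 called 1 higher and 3 lower. Over spleen, edgeR called 0 in egressed cells (median -0.29) and 1 lower in tumor-retained cells (median -0.23). DESeq2 called 0 higher and 3 lower, and 2 higher and 2 lower, in these comparisons. Myc, a transcription factor that drives ribosome production, held 298, 267, 314 and 249 CPM in egressed, 144, 66.0, 168 and 125 CPM in tumor-retained and 278, 309, 419 and 319 CPM in spleen libraries. It was higher in egressed (log2 fold change 1.17 ± 0.25 SE, adjusted p = 0.0456) and lower in tumor-retained than in spleen cells (log2 fold change -1.40 ± 0.25 SE, adjusted p = 0.00975), and tumor-retained libraries lay below all others. Tsc2, an inhibitor of mTOR complex 1, held 27.8, 63.6, 31.5 and 33.2 CPM in egressed and 154, 98.1, 87.3 and 99.0 CPM in tumor-retained libraries, which did not overlap (log2 fold change -1.49 ± 0.28 SE, adjusted p = 0.0298). Larp1, which binds the pyrimidine tract, passed in no comparison (adjusted p = 0.751, 1 and 0.269 for egressed over tumor-retained, egressed over spleen and tumor-retained over spleen). No relation between these genes and the ribosomal protein genes was tested.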

How the data were processed

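Per the labels' protocols, sorted cells were lysed in a Takara solution and their RNA was made into libraries with SMART-Seq v4, a full-length kit for low input that adds no molecular identifiers. Tools listed in the submitters' processing notes are STAR 2.7.3a, Cufflinks 2.2.1, Bowtie2 2.5.1 and cutadapt 2.5, with mm10 as the build and no roles. The counting program, its use of strand and its treatment of reads that fit several genes were not given in the sources used here. Deposited files are raw counts by gene symbol and log2 values made from them. From the values, the deposited log2 is that of the count over a size factor, plus 1, with a largest difference of 5.1e-09. Each of the 12 columns was matched to its sample by name. No pair of libraries within a group was a copy (lowest chi-square per degree of freedom 17.6), and pairs across groups were not checked.

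Counts were tested with edgeR 4.0.16 in R 4.3.3: filterByExpr (21457 genes kept), TMM scaling, 1 quasi-likelihood fit of the 3 groups with 9 residual degrees of freedom, and Benjamini-Hochberg adjustment over all genes tested at 0.05. Every adjusted p-value in the text comes from this test, except that of Rps7 without egressed library 4, which comes from the fit without that library. The SE is the log2 fold change divided by the square root of F. The script was tested on simulated data. Libraries held 22.7 to 36.3 M counts. No test was run on the set as a whole: it is described by counts and medians beside those of all genes tested. Transcript length is that of the shortest principal protein-coding transcript in GENCODE M21, and for Rps20 the entry of 3706 bases may be too long to give a fair level per kb. Promoter sequences come from RefSeq's table (GRCm38.p6). Alternatives were DESeq2 1.42.0, limma 3.58.1 on the deposited log2 values, other scalings and filters, fits of 2 groups, a replicate block and leaving out libraries.

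The genes and lists were chosen with earlier results of these data known. The text names, per comparison, up to 12 called genes by smallest p (filled to 8 where fewer passed). It also names the 4 highest and the 4 lowest genes by mean CPM, the stalk genes, Rpsa and the paralogues with their partners. A few genes that the rule would name are not reported here. Rpl31, Rpl37a, Rps12l1 and Rps20 were named outside this rule. Other genes outside it are said to be so or to be singled out, or are called genes of a listed pathway. The labels name 4 mice but not the mouse of each library, and p-values measure the spread between these libraries.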

Additional observations from a re-analysis of the deposited data

Results flagged for a closer look

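In 9 of 136 checks, made over the named genes and the shares of counts in each group, a single library lay far from the other 3 of its group. Chance alone flags about 1 in 20 such groups, which is close to the rate found, so most of the 9 may be chance. Rpl22l1 was 113 CPM in tumor-retained library 1, against 25.4 to 37.8 CPM in the other 3. Rpl24 was 4.27 CPM in the same library, against 0.978 to 1.19 CPM, and Rps4l was 20.9 CPM there, against 3.47 to 4.51 CPM. That library detected 15296 genes, the fewest of its group, and the part of this in the 3 values was not tested. Rps27l was 125 CPM in egressed library 4, against 45.0 to 55.8 CPM. Rps25 was 257 CPM in tumor-retained library 4, against 344 to 359 CPM. Rpl39 was 190.1 CPM in egressed library 1, a small departure from the 211 to 212 CPM of the other 3. The remaining flags concern genes near the limit of detection. Rpl39l was 2.07 CPM in egressed library 1 and 0.979 CPM in tumor-retained library 2, with no counts in the other 3 libraries of either group. Rpl10l was 0.0953 CPM in spleen library 3 and had no counts in the other 3.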

How the results depend on the processing

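The median log2 fold change of the genes kept its sign in all 22 alternatives, whereas the number of genes called did not hold. Measured against the median of all genes, it kept its side in all 22 for both comparisons of egressed cells, and changed side in 6 for tumor-retained against spleen (-0.135 to 0.449, against -0.094 in the reported fit). For egressed against tumor-retained, egressed against spleen and tumor-retained against spleen, the counts of 13, 2 and 6 became 3, 0 and 1 without a filter on low counts, 0, 19 and 2 with only the 2 groups in the fit, 6, 5 and 3 without both tumor-retained libraries 3 and 4, and 4, 0 and 11 without the 3 libraries with the fewest genes. Both settings that leave out several libraries were chosen after seeing the data. Leaving out single libraries gave 1 to 22, 0 to 6 and 0 to 9. DESeq2 called 37 and 23 in the comparisons of egressed cells, and scaling by library size alone gave 20 and 7. For the comparisons with spleen, limma on the deposited values called 13 and 3, and median-of-ratios factors 9 and 3. The median for egressed against spleen was 0.33 and became 0.49 with DESeq2, 0.47 with library size alone, 0.48 with limma and 0.49 with median-of-ratios factors. Against spleen, median-of-ratios factors moved the median of all genes by 0.16 for egressed and 0.19 for tumor-retained cells. With only the 2 groups, edgeR tested fewer genes, and its 0 calls for egressed against tumor-retained came with 52 genes higher at an unadjusted p under 0.05. Why the others moved was not tested.

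With the replicate number as a block the counts were 2, 0 and 2. The labels do not say that libraries of a number share a mouse. Tissues came from 4 mice, and the deposited columns of all 3 groups carry the same 4 numbers and skip the same one, but whether each number is 1 mouse is not stated. The correlation of their deviations over all genes tested was between -0.124 and 0.117. A library's own number was its best match in 5 of 24 cases, where chance alone gives 1 in 4. Rpl29, singled out for its split, was high in libraries 1 and 4 and low in library 2 of all 3 groups, while library 3 differed by group. These values cannot decide whether a number is 1 mouse. Of single genes, 1740 results stayed on their side of the threshold, 254 lost a call, 66 gained one and none that was called changed sign. Among those not called, the sign differed from the main fit in 63 results, 46 of them for egressed against spleen. The shares of counts moved by less than 1 SD in every alternative run on them. Leaving out 1 or 2 libraries of a group of 4 cannot move its mean by 1 SD. Those alternatives could therefore not have shown a change of that size.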
